A study of Mus musculus with 4 samples.

Results

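The mouse genes of 7 solute carrier families that carry amino acids and related molecules across membranes were examined in the heart. They were chosen by symbol, as every gene named Slc1a, Slc3a, Slc6a, Slc7a, Slc36a, Slc38a or Slc43a followed by a number, and 59 of the 23282 genes listed in the data had such a symbol. Of these, 35 averaged at least 4 normalized reads over the libraries and are described, and 24 did not. The study compared CDF1 mice with or without CT26 murine colorectal cancer cells, given through the tail vein, and with or without high-intensity aerobic exercise on a treadmill. Its groups of 10 mice each were the normal control E(−)T(−), with neither tumor nor exercise, the normal exercise group E(+)T(−), the cancer control E(−)T(+) and the cancer exercise group E(+)T(+). The sample labels give the same age, postnatal day 28, for every group. The paper gives that as the age at which the mice, all male, were purchased. They were killed at the end of the experiment, so the hearts came from older mice. Each group had 1 heart mRNA-seq library, and the number of hearts behind a library is not stated separately, although muscle libraries of the study came from a representative mouse of each group. There was therefore no replicate, no difference between conditions could be tested, and the spread between animals is unknown.

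Cells take up amino acids through carriers that differ in their substrates and in what drives them. Carriers of the SLC1, SLC6 and most of the SLC38 family use the sodium gradient, SLC36 carriers use protons, and most SLC7 proteins are exchangers that need a heavy chain of the SLC3 family to reach the plasma membrane. In heart muscle these carriers supply glutamine and glutamate for energy metabolism, leucine and other essential amino acids for protein synthesis, and taurine and creatine, which cardiomyocytes hold at high levels.

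Values are deposited log2 values of normalized read counts plus 1, and the reads behind them were recovered (4 libraries of 6595426 to 11545999 reads). A gene was called higher or lower when its values differed by at least 1 on this log2 scale, that is 2-fold, and at least 1 of the libraries compared had 4 normalized reads. Intervals in brackets are 95% Clopper-Pearson intervals of the log2 ratio of the recovered reads, and like the floor of 3 reads used for genes without reads they cover counting error only. The libraries were made with a kit that sequences the 3′ end of mRNA, and levels are compared between libraries, not between genes. The heart label was checked on 12 cardiomyocyte markers, which all had reads in every library, with summed levels of 496700 to 553400 normalized reads. The cancer exercise library stood apart. Globin genes took 37.3% of its reads against 7.86% to 8.76% in the others, and all 12 erythroid markers measured were called higher in it than in the cancer control and than in normal exercise. Lung epithelium markers had sums of 625.5 in the normal control, 165.6 in normal exercise, 567.7 in the cancer control and 1839 in cancer exercise, where 6 of 6 were higher than in normal exercise and 3 of 6 higher than in the cancer control. Their part in the levels of carriers high in this library was not tested. Normal exercise vs. normal control and cancer control vs. normal control do not compare that library, and results for the other comparisons cannot be given without it. Its reads still entered the normalization as recovered and the mean by which genes were kept. In tissue RNA, fewer cells of a type and less RNA per cell cannot be told apart.

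In each single comparison, most of the detected transporters stayed within 2-fold. Of the 35 described, 17 were called in no comparison, 5 in 1, 10 in 2 and 3 in 3. Called in any comparison were 51.4% of the 35, beside 39.8% of all genes whose mean reached 4. In normal exercise vs. normal control, 1 was called higher and 2 lower, 8.57% of the 35. Of the 13725 genes whose mean reached 4, 9.94% were called there, 4.77% higher and 5.17% lower. In cancer exercise vs. cancer control, 5 were called higher and 4 lower, 25.7% beside 16.2% of all genes (7.69% higher and 8.47% lower). In cancer control vs. normal control, 8 were called higher and 4 lower, 34.3% beside 25.0%. In cancer exercise vs. normal exercise, 9 were called higher and 1 lower, 28.6% beside 20.1%. The first share lay close to that of all genes, and the others were somewhat above it. In both tumor comparisons the calls were mostly increases, whereas 12.9% of all genes were called higher and 12.1% lower in cancer control vs. normal control, and 10.0% and 10.1% in cancer exercise vs. normal exercise. An exact binomial test of each gene's reads compares libraries and not conditions. It was adjusted by Benjamini-Hochberg over all genes with 4 normalized reads in at least 1 of the libraries compared. By this test all 12 calls of cancer control vs. normal control exceeded read sampling, so 12 of the 35, beside 21.2% of all genes. In cancer exercise vs. normal exercise 9 of 10 calls did, so 9 of the 35, beside 16.4% of all genes. In cancer exercise vs. cancer control 7 of 9 did, so 7 of the 35, beside 12.1% of all genes. In normal exercise vs. normal control 2 of 3 did, so 2 of the 35, beside 4.83% of all genes. These percentages are of all genes, called or not. Among the calls of all genes, 2908 of 3433, 2257 of 2760, 1667 of 2218 and 663 of 1364 exceeded read sampling in the same order of comparisons. The calls that did not, at an adjusted threshold of 0.05, were those of Slc43a1 in the second comparison, Slc7a4 and Slc6a13 in the third and Slc1a2 in the last.

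The median log2 fold change of the 35 transporters was 0.00 in normal exercise vs. normal control and -0.10 in cancer exercise vs. cancer control. It was 0.40 in cancer control vs. normal control, where the median of all genes was -0.02, and 0.05 in cancer exercise vs. normal exercise. Slc6a12, which had no reads without tumor, lies above both of these medians also at its lower bound. The summed level of the set was 6478 normalized reads in the normal control, 6608 in normal exercise, 10280 in the cancer control and 8193 in cancer exercise. The cancer control library was thus the highest, and the 2 libraries without tumor were close to each other. The comparisons are not independent, since each library enters 2 of them.

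When the reads were scaled to library totals instead, the median of all genes moved by more than 0.1 in 3 comparisons, to -0.59 in cancer exercise vs. cancer control, -0.73 in cancer exercise vs. normal exercise and -0.17 in cancer control vs. normal control. On that scale 2 transporters were higher and 11 lower in cancer exercise vs. cancer control, and 5 were higher and 12 lower in cancer exercise vs. normal exercise. The share of all genes called on that scale is not given, so these counts are not a result about the transporters. The excess of increases in cancer exercise vs. normal exercise depends on the scaling. Of 140 single differences over all comparisons, library totals took 9 calls away and added 19. Some differences given below as within 2-fold were therefore called on that scale. Statements on cancer exercise below are on the deposited scale, and relative to the other genes of that library.

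**Figure D1:**
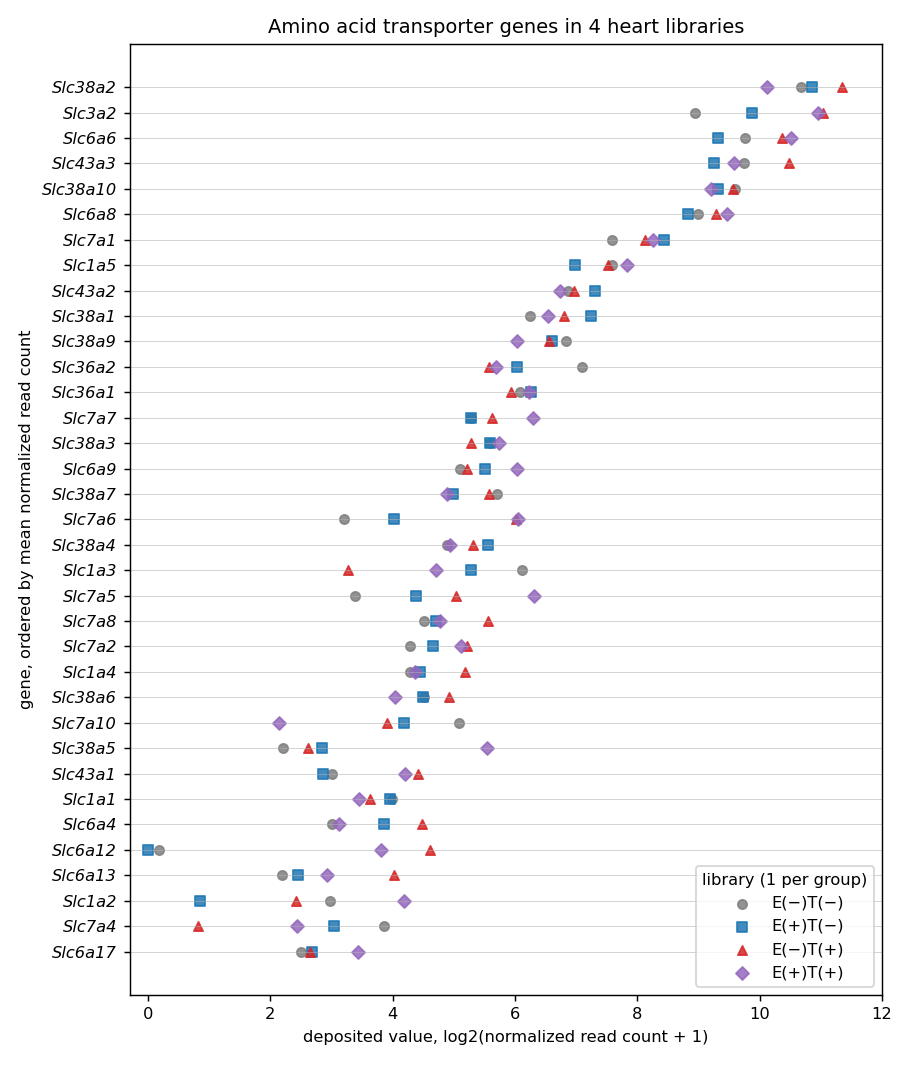
Deposited values, log2 of normalized reads plus 1 (horizontal axis), of the 35 transporter genes (vertical axis, ordered by mean) in the 4 heart libraries, 1 symbol per library. Symbols of many genes lie close together, while those of Slc3a2, Slc7a6, Slc7a5, Slc1a3, Slc38a5 and Slc6a12 are spread, the last with 0 reads in both libraries without tumor.

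Among the heteromeric exchangers, the heavy chain and 2 light chains were higher with tumor at both exercise states. Slc3a2 encodes CD98, the heavy chain that brings its partner light chains to the plasma membrane, and lies on chromosome 19 (mm10, chr19:8706882-8723369, minus strand). Its level was 489.8 normalized reads in the normal control, 938.7 in normal exercise, 2089 in the cancer control and 1991 in cancer exercise. Both libraries with tumor were above both without, and the normal control was the lowest. The log2 fold change was 2.09 (1.94 to 2.25) in cancer control vs. normal control and 1.08 (0.97 to 1.20) in cancer exercise vs. normal exercise, both called higher. With scaling to library totals the second value was 0.37, under the threshold. The exercise difference without tumor was 0.94 (0.78 to 1.11), short of 2-fold although the interval lay above 0, and the exercise difference with tumor was -0.07 (-0.16 to 0.02). Slc3a2 took 7.56% of the reads of the set in the normal control, 14.2% in normal exercise, 20.3% in the cancer control and 24.3% in cancer exercise.

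The light chains of this pattern were Slc7a6 and Slc7a5. Slc7a6, which exchanges cationic for neutral amino acids, had 8.27 normalized reads in the normal control, 15.2 in normal exercise, 63.7 in the cancer control and 65.4 in cancer exercise, on 7, 17, 72 and 60 reads. The libraries fall into 2 levels by tumor, and the log2 fold change was 2.80 (1.87 to 4.35) without exercise and 2.03 (1.30 to 2.96) with it. The exercise difference of Slc7a6 was 0.81 (-0.41 to 2.45) without tumor and 0.04 (-0.47 to 0.56) with it, and neither interval excludes 0.

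Slc7a5, or LAT1, the main importer of leucine and other large neutral amino acids (chr8:121881150-121907694, minus strand), had 9.41 normalized reads in the normal control, 19.8 in normal exercise, 31.7 in the cancer control and 78.4 in cancer exercise, on 8, 22, 36 and 72 reads. Its level was higher with tumor than without at each exercise state, and higher with exercise than without at each tumor state. The tumor difference was 1.65 (0.66 to 3.11) without exercise and 1.93 (1.28 to 2.74) with it, and the exercise difference was 1.28 (0.71 to 1.93) in mice with tumor, all called. The exercise difference without tumor was 0.998 (-0.10 to 2.50), just under the threshold. On library totals the exercise difference with tumor was 0.71, under the threshold, and the one without tumor was 1.03, above it.

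For Slc7a8 and Slc7a7, 1 comparison each was called. Slc7a8, or LAT2, which prefers neutral amino acids, had 21.9 normalized reads in the normal control, 25.3 in normal exercise, 46.1 in the cancer control and 26.3 in cancer exercise. It was high in the cancer control alone, with 1.04 (0.29 to 1.92) over the normal control, and with a pseudocount of 4 this was 0.95. Slc7a7, the second exchanger of cationic for neutral amino acids, had 37.9 normalized reads in both the normal control and normal exercise, 48.5 in the cancer control and 77.5 in cancer exercise. Its highest library was cancer exercise, called higher than normal exercise with 1.01 (0.46 to 1.62) and not called against the cancer control with 0.67 (0.15 to 1.21). On library totals the first of these was 0.31. The 3′ end of Slc7a7 shares 232 exonic bases with Oxa1l on the opposite strand, which had 542.4 to 687.4 normalized reads, and whether the counting used the strand is not stated.

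Slc7a10, a light chain for small neutral amino acids such as serine and glycine, went the other way. It had 32.9 normalized reads in the normal control, 17.2 in normal exercise, 14.1 in the cancer control and 3.42 in cancer exercise, on 29, 19, 16 and 3 reads. The normal control was the highest and the cancer exercise library the lowest. It was called lower in 3 comparisons. The log2 fold change was -1.17 (-2.22 to -0.31) in cancer control vs. normal control, -2.04 (-4.79 to -0.62) in cancer exercise vs. normal exercise and -1.77 (-4.53 to -0.30) in cancer exercise vs. cancer control. Lrp3, on the opposite strand, shares 377 exonic bases with its 3′ end and had 35.2, 18.1, 19.4 and 5.60 normalized reads in the same order of libraries, so that reads of Slc7a10 and Lrp3 cannot be told apart here. Slc6a9, Slc1a1 and Slc7a4 also share exonic bases with a listed gene on the opposite strand, but not at their 3′ ends. The summed level of the 4 light chains without Slc7a10 was 77.5 normalized reads in the normal control, 98.2 in normal exercise, 190.0 in the cancer control and 247.6 in cancer exercise.

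The remaining partners were near the limit of detection. Slc7a11, the light chain of the cystine and glutamate exchanger, had 0, 0, 3 and 1 reads in the normal control, normal exercise, the cancer control and cancer exercise. Slc3a1, the heavy chain of the renal cystine carrier, had 4, 0, 7 and 1 reads, and its light chain Slc7a9 had 0 in every library.

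**Figure D2:**
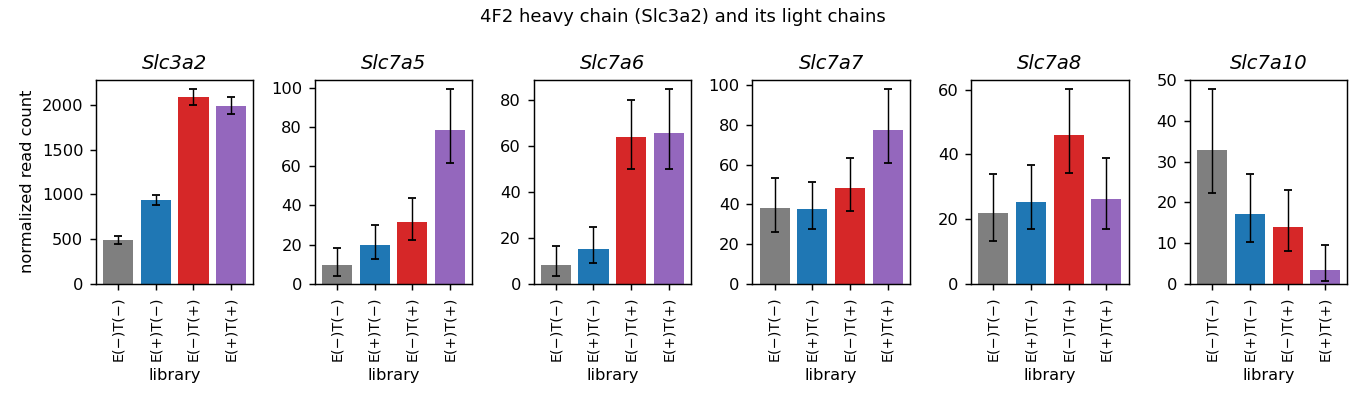
Normalized read counts (vertical axes, each from 0 with its own scale) of the heavy chain gene Slc3a2 and of 5 light chain genes in the 4 libraries (bars), with 95% Poisson intervals of the reads as error bars, which cover counting error only. Slc3a2 and Slc7a6 have their 2 tall bars in the libraries with tumor, Slc7a5 is tallest in cancer exercise with 78.4, Slc7a8 in the cancer control with 46.1 and Slc7a10 in the normal control with 32.9.

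Amino acid shortage acts on several of these genes through ATF4, which binds C/EBP-ATF response elements, and the promoters of the members were searched for the core TGATGNAA (TTNCATCA on the other strand). CACGTG, the E-box bound by Myc and by lysosomal gene regulators, was searched as well and is the same on both strands. Promoter sequences, 250 bases before to 50 after a start, were taken from RefSeq (GRCm38.p6), where 25 of the 35 genes had 43 promoters. The core TGATGNAA was in 3 of these, of Slc1a4 and Slc7a7, beside 3.97% of all 32851 promoters and 2.34% of those of genes whose mean reached 4. The Slc7a7 promoters with the core overlap and share a site. By gene, the core was in 2 of 25, beside 294 of 10347 genes whose mean reached 4. The E-box was in 4, of Slc36a1, Slc38a5, Slc38a7 and Slc43a1, beside 7.15% and 9.67%. A match is a description and not a bound site, and no match says only that these letters are not in this window. The following promoters are shown for Slc3a2 and Slc7a6, which were called higher in both tumor comparisons and hold neither motif, for Slc1a4, whose core lies at the start itself, and for Slc38a5, the member with the largest increase in cancer exercise vs. cancer control. Each runs 5′ to 3′ on the strand of its gene, and capitals mark a motif.
Slc3a2 (chr19:8713848-8714147, minus strand): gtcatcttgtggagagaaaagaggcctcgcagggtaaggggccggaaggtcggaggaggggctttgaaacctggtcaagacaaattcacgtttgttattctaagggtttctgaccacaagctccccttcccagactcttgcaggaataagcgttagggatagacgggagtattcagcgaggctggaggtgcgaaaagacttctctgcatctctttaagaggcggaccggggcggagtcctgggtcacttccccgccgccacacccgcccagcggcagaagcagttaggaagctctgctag
Slc7a6 (chr8:106168604-106168903, plus strand): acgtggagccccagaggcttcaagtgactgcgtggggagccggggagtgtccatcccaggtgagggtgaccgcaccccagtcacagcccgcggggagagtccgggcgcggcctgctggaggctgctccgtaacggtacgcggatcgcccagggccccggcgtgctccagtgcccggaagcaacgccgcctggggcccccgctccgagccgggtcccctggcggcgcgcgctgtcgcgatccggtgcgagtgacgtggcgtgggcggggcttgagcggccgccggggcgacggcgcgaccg
Slc1a4 (chr11:20332664-20332963, minus strand): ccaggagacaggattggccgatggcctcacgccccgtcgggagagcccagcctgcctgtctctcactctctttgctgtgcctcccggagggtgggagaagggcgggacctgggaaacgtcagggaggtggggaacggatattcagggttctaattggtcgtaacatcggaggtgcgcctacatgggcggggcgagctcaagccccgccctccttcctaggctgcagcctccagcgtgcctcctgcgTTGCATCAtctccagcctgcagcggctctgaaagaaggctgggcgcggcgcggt
Slc38a5 (chrX:8271131-8271430, plus strand): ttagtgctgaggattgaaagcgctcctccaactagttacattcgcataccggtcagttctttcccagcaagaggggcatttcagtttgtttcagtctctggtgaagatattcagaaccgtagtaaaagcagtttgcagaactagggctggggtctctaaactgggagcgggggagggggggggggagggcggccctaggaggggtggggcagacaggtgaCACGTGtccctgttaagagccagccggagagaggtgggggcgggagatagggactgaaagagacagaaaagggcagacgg
The Slc3a2 start lies within the annotated span of the gene, and that of Slc7a6 is the more upstream of a pair listed. The core in Slc1a4 begins at position -4 from the start, and the E-box of Slc38a5 at -30.

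System A carriers import small neutral amino acids such as alanine and glutamine with sodium, and Slc38a2, or SNAT2, is the member that cells raise when amino acids run short. Slc38a2 (chr15:96687392-96699730, minus strand) had 1633 normalized reads in the normal control, 1858 in normal exercise, 2595 in the cancer control and 1116 in cancer exercise. The cancer control was the highest library and the cancer exercise library the lowest. Its log2 fold change in cancer exercise vs. cancer control was -1.22 (-1.32 to -1.12), called lower, on 1020 against 2942 reads. Without tumor, the exercise difference was 0.19 (0.09 to 0.28), and the tumor difference was 0.67 (0.58 to 0.76) without exercise and -0.73 (-0.85 to -0.63) with it, all within 2-fold. Slc38a2 took 25.2%, 28.1%, 25.2% and 13.6% of the reads of the set in the normal control, normal exercise, the cancer control and cancer exercise.

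Slc38a1, the second system A carrier, had 74.6 normalized reads in the normal control, 151.2 in normal exercise, 111.1 in the cancer control and 91.9 in cancer exercise. Its highest library was normal exercise, which exceeded the normal control by 1.01 (0.60 to 1.46). This was the one increase called in that comparison, and it lay so close to the threshold that it was 0.98 with a pseudocount of 4. Slc38a4, the third carrier of the system, was within 2-fold everywhere, with 28.8 to 46.2 normalized reads. Together the 3 had 1736, 2055, 2745 and 1237 normalized reads in the normal control, normal exercise, the cancer control and cancer exercise, a sum that is mostly Slc38a2.

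In the other part of the SLC38 family, Slc38a5 stood out. This system N carrier of glutamine, histidine and glycine had 3.64 normalized reads in the normal control, 6.22 in normal exercise, 5.14 in the cancer control and 45.4 in cancer exercise, on 3, 7, 6 and 42 reads. Its level in the cancer exercise library was far above the other 3, which were alike within counting error. The log2 fold change was 2.92 (1.88 to 4.64) over the cancer control and 2.69 (1.69 to 4.26) over normal exercise. Erythroid markers moved with it. The sum of the 12 measured was 526700, 508600, 522700 and 3594000 normalized reads in the same order of libraries, with a median log2 fold change of 3.11 in cancer exercise vs. cancer control. Rhag and Ermap had 0 reads in both libraries without tumor. The part of erythroid cells in the Slc38a5 difference was not tested.

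The 5 other described carriers of this family were called in no comparison. Slc38a10 had 776.1 normalized reads in the normal control, 637.7 in normal exercise, 759.6 in the cancer control and 590.4 in cancer exercise. Slc38a9, the lysosomal arginine sensor of the mTORC1 pathway, had 64.6 to 113.4 normalized reads. Slc38a7, a lysosomal glutamine exporter, had 28.5 to 51.5 normalized reads. Slc38a3, the glutamine carrier of liver and kidney, had 37.9 to 52.5 and Slc38a6 had 15.4 to 29.2.

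Among the SLC1 carriers, Slc1a3, or GLAST, a glutamate transporter best known from glia (chr15:8634124-8710764, minus strand), had the largest decrease of the set with tumor among members whose mean reached 16. It had 68.4 normalized reads in the normal control, 38.0 in normal exercise, 8.62 in the cancer control and 25.2 in cancer exercise, on 60, 42, 10 and 23 reads. Both libraries with tumor were below both without, and the cancer control was the lowest. The tumor difference was -2.85 (-4.09 to -1.99) without exercise, called lower, and -0.57 (-1.40 to 0.17) with it. The exercise difference was 1.45 (0.39 to 2.75) with tumor, called higher, and -0.83 (-1.46 to -0.26) without it. On library totals the increase was 0.86, under the threshold.

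Markers of nerve and glia had sums of 474.2, 446.3, 212.9 and 185.4 normalized reads in the same order, with Snap25 at 0 in every library, and 3 of the 6 whose mean reached 4 were lower and 1 higher in cancer control vs. normal control. White adipocyte markers had sums of 22970, 16080, 14120 and 22610, and 6 of 8 were lower in that comparison and 6 higher in cancer exercise vs. cancer control. Their part in the Slc1a3 values was not tested.

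Slc1a2, the main glutamate transporter of astrocytes, had 6, 1, 5 and 16 reads in the normal control, normal exercise, the cancer control and cancer exercise. It was called lower with exercise in mice without tumor, -2.13 (-8.45 to 0.12), and higher in mice with tumor, 1.78 (0.47 to 3.79), and its level in cancer exercise was also higher than in normal exercise, 3.34 (1.59 to 9.66). The first interval includes 0, and all rest on few reads. It was the 1 member called in opposite directions in the exercise comparisons, and the share of all genes so called is not given. Slc1a1, the third glutamate carrier, was within 2-fold, with 9.89 to 14.9 normalized reads.

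The neutral amino acid carriers of the family were called in no comparison. Slc1a5, or ASCT2, an importer of glutamine, had 190.2 normalized reads in the normal control, 125.6 in normal exercise, 181.7 in the cancer control and 227.3 in cancer exercise. The 2 exercise libraries were thus its lowest and its highest, with 0.85 (0.54 to 1.18) between them. Slc1a4, or ASCT1, a carrier of serine and alanine, had 18.4 to 35.4 normalized reads.

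**Figure D3:**
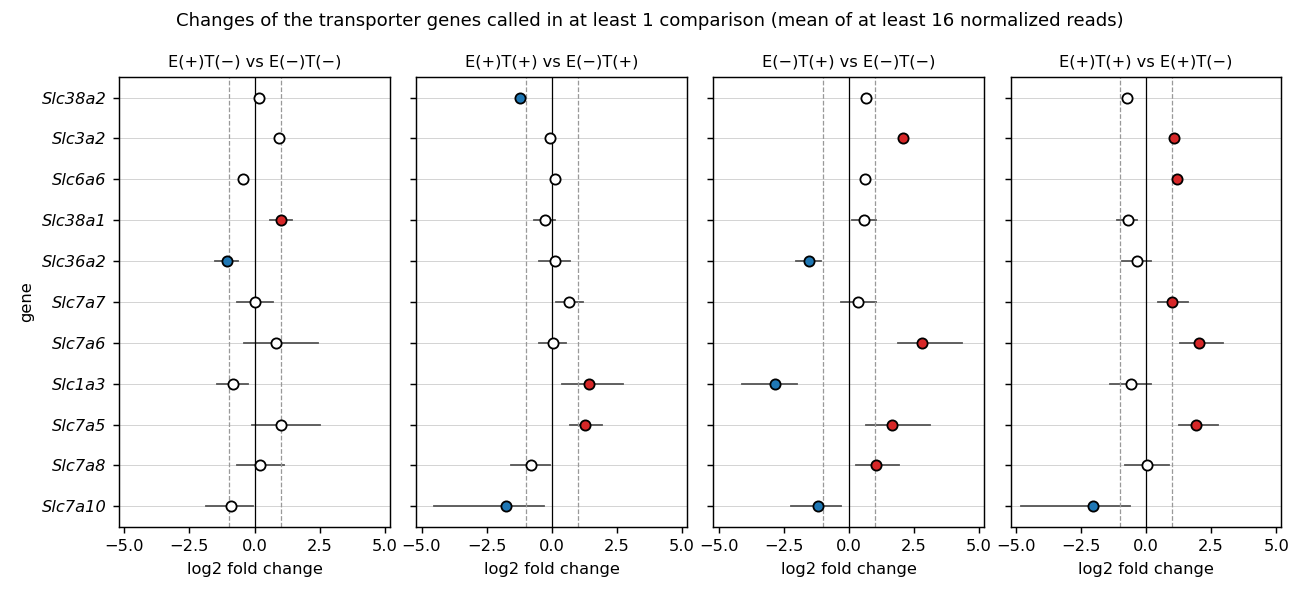
Log2 fold changes (horizontal axes) of the 11 transporter genes averaging at least 16 normalized reads that were called in at least 1 comparison (vertical axis), in the 4 comparisons (panels), with 95% counting intervals as lines. Red points were called higher, blue points lower and white points neither, and dashed lines mark 2-fold. Slc3a2, Slc7a6 and Slc7a5 are red in both tumor comparisons, and Slc38a2 is blue in 1 panel, cancer exercise vs. cancer control.

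Cationic amino acid carriers import arginine and lysine. Slc7a1, or CAT1, had 190.5 normalized reads in the normal control, 346.5 in normal exercise, 279.5 in the cancer control and 304.1 in cancer exercise. The normal control was its lowest library, and the exercise difference without tumor was 0.86 (0.60 to 1.14), short of 2-fold. Slc7a2, or CAT2, had 18.5 to 36.3 normalized reads and was called in no comparison. Slc7a4, a relative without known transport function, had 12, 8, 1 and 4 reads. It was called lower in cancer control vs. normal control, -3.04 (-9.38 to -1.21), and higher in cancer exercise vs. cancer control, 1.63 (-1.03 to 7.93), and both calls rest on the 1 read of the cancer control.

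The SLC6 carriers of taurine and creatine, an osmolyte and an energy store of heart muscle, had their highest levels with tumor. Slc6a6, the taurine transporter, had 866.7 normalized reads in the normal control, 640.4 in normal exercise, 1318 in the cancer control and 1456 in cancer exercise. Both libraries with tumor were above both without. The difference was 1.18 (1.05 to 1.32) in cancer exercise vs. normal exercise, called higher, and 0.60 (0.48 to 0.73) in cancer control vs. normal control. On library totals the first was 0.47, under the threshold. Slc6a8, the creatine transporter, had 510.3, 455.7, 621.1 and 706.2 normalized reads in the same order and stayed within 2-fold, with 0.63 (0.46 to 0.80) in cancer exercise vs. normal exercise.

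The betaine carrier Slc6a12 had reads in libraries with tumor only. There were 0 reads of Slc6a12 in the normal control and normal exercise, 26 in the cancer control and 12 in cancer exercise. Against the floor of 3 reads in the library without tumor, the observed log2 fold change is at least 2.74 without exercise and at least 2.27 with it. This floor leaves out the counting error of the 26 and 12 reads, and the lower limits of the counting intervals are 2.34 and 1.75. Slc6a13, a closely related carrier of GABA and taurine, had 3.56 normalized reads in the normal control, 4.45 in normal exercise, 15.2 in the cancer control and 6.59 in cancer exercise. Its highest library was the cancer control, with 1.83 (0.34 to 4.54) over the normal control and -1.10 (-2.82 to 0.22) for cancer exercise vs. cancer control, the second interval including 0.

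Slc6a4, the serotonin transporter, which platelets also use, had 7.01 normalized reads in the normal control, 13.6 in normal exercise, 21.4 in the cancer control and 7.73 in cancer exercise. The cancer control was the highest, with 1.48 (0.29 to 3.20) over the normal control, and the log2 fold change of cancer exercise vs. cancer control was -1.36 (-2.93 to -0.21). Platelet markers, all 6 detected in every library, had sums of 902.3, 1659, 3359 and 2545 normalized reads in the same order, and the part of platelets in these values was not tested. Slc6a9, the glycine transporter, had 33.3 to 64.4 normalized reads and Slc6a17, a vesicular carrier of neutral amino acids, 4.65 to 9.76, and neither was called in any comparison.

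SLC36 carriers move small amino acids with protons. Slc36a2 had 136.0 normalized reads in the normal control, 64.2 in normal exercise, 46.6 in the cancer control and 50.4 in cancer exercise. The normal control was well above the other 3 libraries. It was called lower with exercise in mice without tumor, -1.07 (-1.53 to -0.65), and with tumor in mice without exercise, -1.52 (-2.04 to -1.07), and the exercise difference with tumor was 0.11 (-0.50 to 0.70). Slc36a2 and Slc7a10 are both known as surface proteins of fat cells. White adipocyte markers were lower in the same comparisons, 6 of 8 in each, with medians of -1.92 and -3.08. In cancer exercise vs. cancer control, 6 of 8 were higher with a median of 2.76, whereas Slc36a2 was not called and Slc7a10 was lower. Of these markers Plin1 had 0 reads in the cancer control. The sum is mostly Fabp4, with 19060 normalized reads in cancer exercise and 20070 in the normal control. Between the same libraries, Car3 had 82.2 against 441.3, Cidec 164.0 against 263.1 and Retn 61.2 against 103.8, lower in cancer exercise as were Slc36a2 and Slc7a10, while Adipoq had 389.2 against 363.1, Cfd 1885 against 1228 and Plin1 82.8 against 59.4. Ucp1, which defines brown adipocytes, had 814 reads in cancer exercise and 0 in the others. Of 7 brown adipocyte markers, 3 were higher and 1 lower in cancer exercise vs. cancer control, beside 7.69% and 8.47% of all genes. The lower one was Dio2, with -1.09. The part of fat cells in these transporter values was not tested. Slc36a1, the lysosomal carrier of the family, had 59.9 to 76.0 normalized reads and was called in no comparison.

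SLC43 carriers move large neutral amino acids without sodium, except Slc43a3, which carries purine bases. Slc43a3 had 856.5 normalized reads in the normal control, 612.1 in normal exercise, 1421 in the cancer control and 763.3 in cancer exercise. It was highest in the cancer control, yet within 2-fold, with 0.73 (0.60 to 0.86) over the normal control and -0.90 (-1.03 to -0.77) for cancer exercise vs. cancer control. Slc43a2, or LAT4, had 115.8, 158.3, 124.4 and 106.1 normalized reads in the same order, with no call. Slc43a1, or LAT3, had 7.02, 6.23, 20.4 and 17.4 normalized reads. Its 2 libraries with tumor were above the 2 without, by 1.42 (0.22 to 3.15) without exercise and 1.35 (0.10 to 2.99) with it, and on library totals the second was 0.68.

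**Figure D4:**
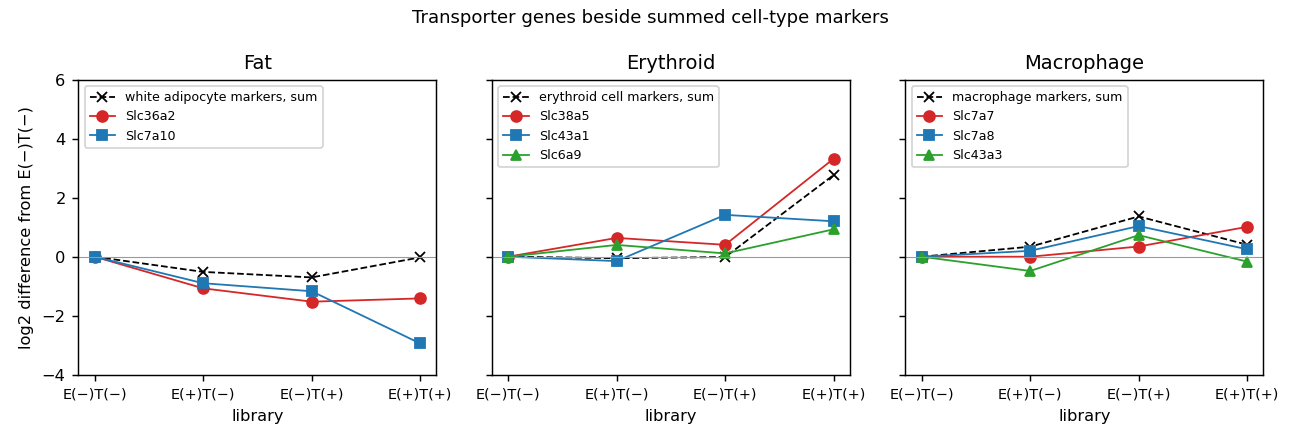
Log2 difference from the normal control (vertical axis) of named transporter genes (coloured symbols) and of the summed level of markers of a cell type (crosses, dashed line) in the 4 libraries (horizontal axis), with lines to guide the eye. Slc38a5 and the erythroid markers are high in cancer exercise alone, Slc36a2 and Slc7a10 stay low in cancer exercise, where the fat marker sum, mostly Fabp4, is near that of the normal control, and Slc7a8 and the macrophage markers are both highest in the cancer control. In the erythroid panel, Slc43a1 is instead high in both libraries with tumor, and Slc6a9 was called in no comparison. In the macrophage panel, Slc43a3 is highest in the cancer control, but Slc7a7 is highest in cancer exercise.

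Macrophage markers had sums of 3441, 4354, 8863 and 4561 normalized reads in the normal control, normal exercise, the cancer control and cancer exercise. The cancer control was also the highest library of Slc7a8, Slc43a3, Slc38a2, Slc6a13, Slc6a4, Slc3a2, Slc6a12, Slc43a1, Slc7a2, Slc1a4 and Slc38a6. Some of them differed little from cancer exercise, such as Slc3a2 with 2089 against 1991 and Slc7a2 with 36.3 against 33.9 normalized reads. The share of all genes highest in the cancer control is not given. In cancer control vs. normal control, 9 of the 12 macrophage markers were higher, and Arg1 had 444 reads against 0. Fibroblast markers were 25620, 30630, 55390 and 32250, with 4 of 8 higher in the same comparison. Neutrophil markers were 126.7, 86.7, 3110 and 5954, high in both libraries with tumor as were Slc3a2, Slc7a6 and Slc7a5, and 8 of 8 were higher in each tumor comparison. Proliferation genes were 367.2, 333.5, 847.5 and 1328 in the same order, with 5 of 8 higher in cancer control vs. normal control and 7 of 8 in cancer exercise vs. normal exercise. Among them Mki67 had 41.6, 27.9, 81.9 and 396.3 normalized reads and was highest in cancer exercise, as was Slc7a5. In cancer exercise vs. cancer control, however, 2 of the 8 were called higher, Mki67 and Rrm2, beside 7.69% of all genes. The median of the 8 was 0.37 there, and Cdk1 was at -0.105. The part of these cells and of proliferation in the transporter differences was not tested.

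Genes that act with the transporters were counted as lists. Those of ATF4 and its targets in the amino acid response had the most calls in cancer control vs. normal control. There, 8 of the 35 transporters were called higher, Slc3a2, Slc7a5 and Slc7a6 among them. Slc38a2 was not called, with 0.67, nor were Slc7a1 with 0.55 and Slc1a5 with -0.07. Of 20 genes of the ATF4 list whose mean reached 4, 11 were higher and 1 lower in that comparison. This compares with 12.9% and 12.1% of all genes, and the median of the list was 1.12. Atf4 itself had 991.6 normalized reads in the normal control, 1720 in normal exercise, 2434 in the cancer control and 1877 in cancer exercise, and was higher by 1.30 (1.19 to 1.41) in that comparison. Chac1, a glutathione-degrading enzyme of this response, had 1, 18, 66 and 52 reads. Psat1, an enzyme of serine synthesis, was higher by 2.27 (1.63 to 3.11) and Ddit4, an inhibitor of mTORC1, by 2.11 (1.997 to 2.23). Gdf15, a stress hormone of the same list, was lower, with -1.11, and Fgf21 was at 0 in every library.

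The other comparisons gave other counts for this list. In normal exercise vs. normal control, 5 of the 20 were higher and 0 lower, beside 4.77% and 5.17% of all genes, with a median of 0.51. In cancer exercise vs. cancer control, 0 were higher and 5 lower, beside 7.69% and 8.47%, with a median of -0.39. Against normal exercise, cancer exercise had 4 higher and 4 lower, beside 10.0% and 10.1%. In cancer exercise vs. cancer control, where 0 of the 20 were higher, Slc7a5 was higher and Slc38a2 was lower. The part of ATF4 in the transporter differences was not tested.

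Of 31 genes of the mTORC1 sensing machinery, 1 was higher and 3 were lower in cancer control vs. normal control, beside 12.9% and 12.1% of all genes. The higher one was Sesn3 with 1.19, of the sestrin family, which restrains mTORC1, and the lower ones were Wdr24 with -2.22, of a complex that promotes mTORC1 activity, Nprl2 with -1.37, of a complex that inhibits it, and Mlst8 with -1.61, a subunit of mTORC1 itself. Of 21 aminoacyl-tRNA synthetases, which charge tRNA with the imported amino acids and are cytosolic except Fars2 of mitochondria, 0 were called in any comparison, although the median in cancer control vs. normal control was 0.27. Of 16 enzymes of glutamine, glutamate, aspartate and alanine metabolism, 1 was higher in that comparison, Asns by 1.26, and the alanine transaminases Gpt and Gpt2 were lower, with -1.08 and -1.06.

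The branched-chain amino acids, which Slc7a5 and Slc3a2 import, are broken down in mitochondria. Of 20 genes of this breakdown, 0 were higher and 5 lower in cancer control vs. normal control, beside 12.1% of all genes lower, and the median was -0.48. Dbt, a subunit of the branched-chain ketoacid dehydrogenase, was lower with -1.44 and Mccc1, of leucine breakdown, with -1.30. In cancer exercise vs. normal exercise none of the 20 was called, by the 2-fold rule without replicates, beside 20.1% of all genes, and the median was 0.01. In cancer exercise vs. cancer control 0 were higher and 1 lower, beside 7.69% and 8.47% of all genes, and the median was 0.35.

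Genes for synthesis of the molecules that Slc6a6 and Slc6a8 import were called in both directions. Cdo1, which makes the precursor of taurine, was higher by 2.43 in cancer exercise vs. normal exercise, where Slc6a6 was higher too. Gamt, which makes creatine, was lower with -2.91 in cancer control vs. normal control and with -2.67 in cancer exercise vs. normal exercise, on 80, 84, 13 and 10 reads in the normal control, normal exercise, the cancer control and cancer exercise. Of the 18 genes of this list, which also holds glutathione and polyamine synthesis, 3 were higher and 3 lower in cancer control vs. normal control, beside 25.0% of all genes called, and 3 higher and 2 lower in cancer exercise vs. normal exercise, beside 20.1%.

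Of 9 proteins that traffic or regulate the transporters, 3 were higher in cancer control vs. normal control, where 12.9% of all genes were. Sgk1, a kinase that keeps several carriers at the cell surface, had 199, 390, 1213 and 1471 reads and was higher by 2.22 without exercise and by 2.19 with it. Of 9 other carriers of amino acids and peptides, 0 were higher and 2 lower in cancer control vs. normal control, beside 12.9% and 12.1% of all genes, and 2 higher and 4 lower in cancer exercise vs. cancer control, beside 7.69% and 8.47%. Slc16a10, which lets aromatic amino acids out of cells, was lower in the first, with -1.53, and higher in the second, with 1.73.

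**Figure D5:**
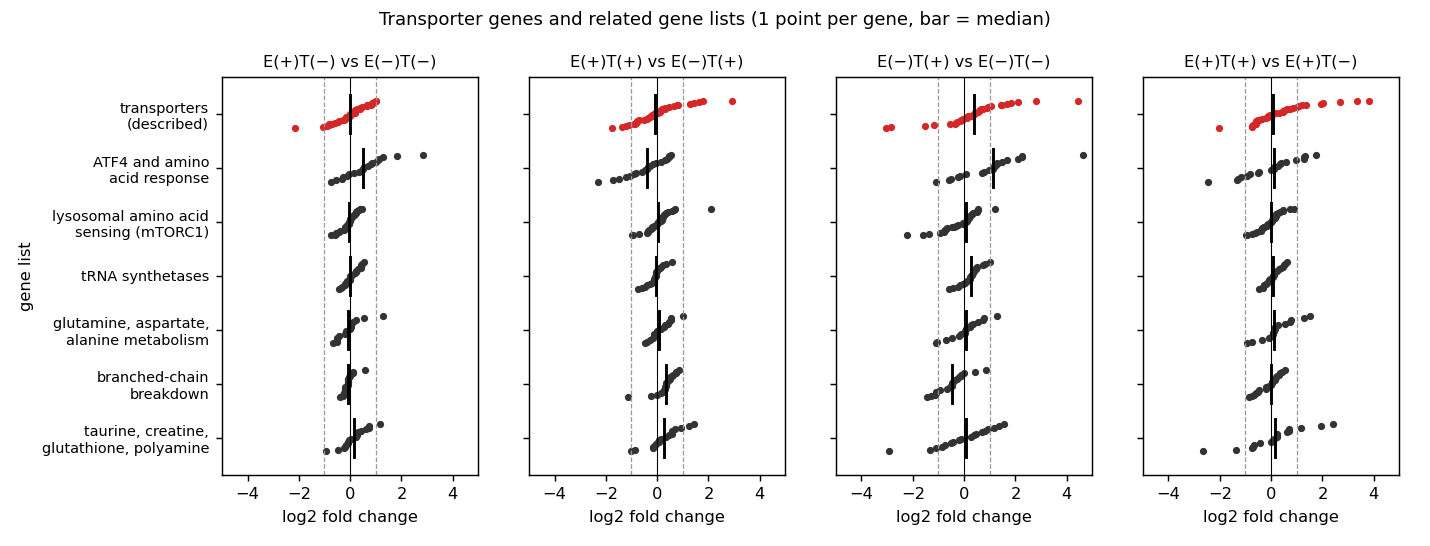
Log2 fold changes (horizontal axes) of the 35 transporter genes (red) and of genes whose mean reached 4 in 6 related lists (black), 1 point per gene, in the 4 comparisons (panels), with vertical bars for medians and dashed lines at 2-fold. The bar of the ATF4 list lies at 1.12 in cancer control vs. normal control, beside 0.40 for the transporters, and no point of the tRNA synthetases was called.

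The 24 transporters under the mean of 4 normalized reads comprised 13 without a read in any library and 11 with 1 to 14 reads in all. Among the 13 were carriers known from brain, such as the dopamine transporter Slc6a3, and from kidney or gut, such as Slc6a18 and Slc6a19. The noradrenaline transporter Slc6a2, known from sympathetic nerve endings, had 14 reads over the 4 libraries. The means just outside the limit were 3.48 for Slc6a2 and 2.995 for Slc3a1, and just inside it 6.27 for Slc6a17 and 6.48 for Slc7a4. With 0 reads, a level of up to 3 reads per library is possible.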

How the data were processed

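Heart mRNA-seq data of 4 groups of CDF1 mice were used, with 1 library per group, and groups were taken from the sample titles. Other tissues of the study were not analysed here. QuantSeq libraries were sequenced by the authors, who used Bowtie2 for alignment (mm10 per the labels) and bedtools for gene counts, followed by quantile normalization in R. The values deposited are log2 of normalized read counts plus 1. Whole reads were recovered from them in R 4.3.3 by inverting a quantile adjustment with a common dispersion of 0.149, and every value was given back within 0.000588. The recovery and the calls were checked on simulated data.

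A call needed a fold change of at least 2 and at least 4 normalized reads in 1 of the libraries compared, after the study's definition. Without replicates no condition was tested. Counting error was given by 95% Clopper-Pearson intervals and an exact binomial test of reads (two-sided, Benjamini-Hochberg, threshold 0.05). The adjustment was over the genes with at least 4 normalized reads in 1 of the libraries compared. Reads without molecular identifiers are not independent molecules. Genes named with values in each library are members with a mean of at least 16 that were called, the 10 members with the highest mean, and partners in the same heteromer. Members called on a lower mean are given with their values. Other members are given by ranges and counts, and not every member with a mean under 4 is named. Of related lists, counts and up to 4 genes are named. Atf4, Chac1, Fgf21 and marker genes named beside a member were picked after their values were seen. The members and all lists were chosen with earlier results of these data known. Gene positions and exon overlaps come from the GENCODE annotation of mm10, and promoters from RefSeq. Alternatives changed the scaling, depth, pseudocount, count minimum and duplicate symbols. Python 3.11.15 was used with pandas 2.3.3, scipy 1.17.1 and numpy 2.4.6, and figures were drawn with matplotlib 3.10.9.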

Additional observations from a re-analysis of the deposited data

Results flagged for a closer look

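Slc1a2 was the member whose exercise difference had opposite directions in mice with and without tumor, both past 2-fold. Its log2 fold change was -2.13 in normal exercise vs. normal control, on 1 against 6 reads, and 1.78 in cancer exercise vs. cancer control, on 16 against 5 reads. The first difference did not exceed read sampling, and its interval, -8.45 to 0.12, includes 0. With 1 library per group the difference between these values was not tested.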

How the results depend on the processing

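Scaling to library totals gave in cancer exercise vs. cancer control 2 higher, 11 lower and a median of -0.66 (all genes -0.59), in cancer exercise vs. normal exercise 5 higher, 12 lower and -0.64 (all genes -0.73), and in cancer control vs. normal control a median of 0.26 (all genes -0.17). Dropping every gene above 1% of the reads gave medians of 0.26 in the last of these and -0.12 in cancer exercise vs. normal exercise, with all genes at -0.17 and -0.19. Thinning reads to the smallest library gave 3 higher in normal exercise vs. normal control, a median of -0.30 in cancer exercise vs. cancer control and 4 lower in cancer exercise vs. normal exercise. In normal exercise vs. normal control, median-of-ratios size factors gave 2 higher, a pseudocount of 4 gave 0 higher and a count minimum of 16 gave 1 lower. That minimum gave 2 lower in cancer exercise vs. cancer control, and members with a mean of at least 16 had a median of -0.051 in cancer exercise vs. normal exercise. The causes were not tested, and the shares of all genes called under these settings are not given. The other counts stayed within 1.5 times and no call reversed. Of 140 single differences, library totals took 9 calls away and added 19, thinning 2 and 12, leaving out genes over 1% 4 and 1, the pseudocount 5 and 0, median-of-ratios 0 and 1, and summing rows with the same symbol 0 and 0. No paired analysis was possible because each group had 1 library. Depth limits members with few reads, and differences within counting intervals were not detectable.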
